A study of Mus musculus with 4 samples.

Results

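Ppt1 and 8 other genes of lysosomal storage and lysosomal function were examined for binding of SMAD4 in mouse alveolar macrophages (AMs). The members were Ppt1, Ppt2, Tpp1, Cln3, Cln8, Mfsd8, Grn, Pla2g15 and Smpd1, 9 of the 20923 protein-coding genes with curated RefSeq transcripts. A peak was counted at a gene when its summit, the position of highest signal, lay in the gene body or within 50 kb of a curated transcription start site (TSS) of that gene. By this rule 14 of the 16369 peaks of replicate 1 and 20 of the 19015 peaks of replicate 2 belonged to the genes. A region was called shared where a peak of replicate 1 and a peak of replicate 2 had 1 bp or more in common, and the pair was then merged. Of these, 11 of 10964 belonged to the genes.

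Lysosomes break down proteins, lipids and sugars that a cell takes up or recycles, and a missing lysosomal enzyme or membrane protein leaves its substrate to accumulate. In the neuronal ceroid lipofuscinoses (NCL, or Batten disease) the stored material is an autofluorescent lipopigment, and neurons are the cells most affected. AMs take up and degrade spent surfactant, the lipid and protein film of the airspaces, so that lysosomal lipid breakdown is a large part of their work. SMAD4 is the common partner of the receptor-regulated SMAD proteins, which enter the nucleus after TGFβ or BMP receptors are activated.

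AMs were collected by lavage of the airspaces of 9-week-old wild-type C57BL/6J mice and purified by flow sorting. Chromatin was immunoprecipitated with SMAD4 antibodies in 2 libraries, and 2 input libraries received no antibody. In HT-ChIPmentation the Tn5 transposase cuts and tags the bead-bound chromatin, so that libraries can be made from few cells. All mice were of the same genotype and age, with no treatment given in the labels. The study had itself reported matching peaks of SMAD4 and other transcription factors at Ppt1, which it placed among apoptosis-related genes. Whether the 2 SMAD4 libraries came from separate mice or pools of mice was not given in the labels, so the spread between them may be technical.

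Values are given for both SMAD4 libraries, called replicate 1 and replicate 2 (n = 2 throughout). Fold enrichment is the authors' ratio of fragments stacked at the summit to a control level taken from input, and the fragments at the summit were solved from that fold and its p-value. Peaks had a median of 17 fragments at the summit in replicate 1 and 14 in replicate 2, and the lowest were 9 and 7. At 79.4% and 80.9% of summits the control level equalled the background of the whole genome, 2.08 fragments in replicate 1 and 1.22 in replicate 2. A higher fold in replicate 2 can therefore go with fewer fragments, and the fold was higher in replicate 2 at 11 of 11 regions of the genes and at 87.2% of all shared regions. There was no second condition, so no difference between conditions was tested, and the counts for the 9 genes are set beside the same count over all protein-coding genes or all shared regions. Expression was not measured in these libraries. Of AM marker genes, 8 of 8 (Siglecf, Marco, Itgax, Pparg, Mrc1, Car4, Fabp4 and Chil3) had a shared region by the same rule, compared with 39.1% of all protein-coding genes. At 7 of the 8 a shared region was nearest to the gene's own TSS. The markers were chosen with earlier results of these data known, and Pparg and Mrc1 are long genes (129 and 103 kb). The count therefore does not check the cell type.

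Shared SMAD4 regions lay at 6 of the 9 genes (Ppt1, Ppt2, Cln8, Mfsd8, Grn and Pla2g15), compared with the same 39.1% of protein-coding genes. At 3 of the 9 (Ppt1, Cln8 and Grn) a shared region was nearest to the gene's own TSS, compared with 21.5%. Ppt1 was the member with a shared region inside its gene body, 1 of 9 compared with 13.9%, and Ppt2 the member with 4 or more regions, 1 of 9 compared with 5.83%. With 9 genes, 1 gene more or less moves each of these shares widely, and nothing particular to the list was read from them. Of the 11 regions, 5 were nearest to the TSS of the member and 6 were nearest to another gene. Tpp1 and Smpd1 had no peak in either replicate, and Cln3 had peaks without a partner in the other replicate.

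**Figure D1:**
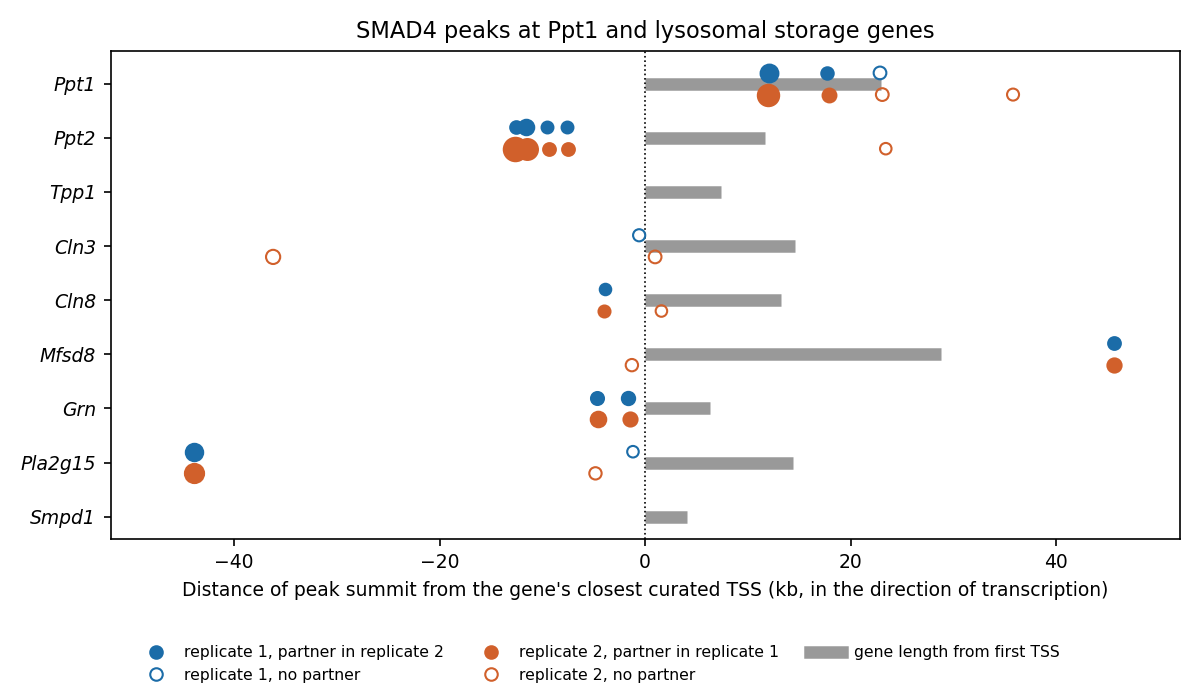
Peaks at the 9 genes by distance from the gene's closest curated TSS (x axis, kb, negative values upstream in the direction of transcription), with replicate 1 above and replicate 2 below the grey bar that marks each gene's length. Filled points have a partner in the other replicate and larger points have a higher fold. Shared regions lie inside the Ppt1 gene, in a group upstream of Ppt2 and near the starts of Grn and Cln8, while the lines of Tpp1 and Smpd1 are empty.

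Ppt1 encodes palmitoyl-protein thioesterase 1, the lysosomal enzyme that removes palmitate from proteins, and its loss causes the infantile form of NCL. The strongest shared region of the 9 genes by the smaller of its 2 folds lay in intron 4 of Ppt1, at chr4:122847929-122848554 (mm10, as all coordinates here), 11982 bp downstream of the TSS. Its fold enrichment was 13.0 in replicate 1 and 19.4 in replicate 2, from 39 and 42 fragments at the summit. The −log10 q at the summit was 32.1 and 45.6. Both replicates thus held this peak far above the control level, and 87.0% of all shared regions had a lower smaller fold.

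A weaker region lay in intron 6, at chr4:122853702-122854181, 17759 bp downstream of the TSS and 5777 bp from the first. Its fold was 5.52 and 7.22, from 16 and 15 fragments, and 32.2% of all shared regions had a lower smaller fold. The summits of the 2 replicates lay 112 bp apart in the intron 4 region and 163 bp apart in the intron 6 region, compared with a median of 49 bp over all shared regions. Both regions were nearest to the Ppt1 TSS.

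The genome sequence of both Ppt1 regions is given because they are the regions inside a gene of the list. Each sequence here and below is 201 bases of the plus strand of the RefSeq GRCm38 genome, centred on the mean of the 2 summits, and capitals mark the strings that were searched. The intron 4 window holds the E-box CACGTG and the STAT-type string TTCCCAGAA, and the intron 6 window holds the STAT-type string TTCTCAGAA.
Ppt1 intron 4, chr4:122848109-122848309: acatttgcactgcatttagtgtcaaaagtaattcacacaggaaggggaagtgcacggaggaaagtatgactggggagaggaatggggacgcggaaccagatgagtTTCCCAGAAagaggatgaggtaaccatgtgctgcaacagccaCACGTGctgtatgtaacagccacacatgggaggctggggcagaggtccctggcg
Ppt1 intron 6, chr4:122853886-122854086: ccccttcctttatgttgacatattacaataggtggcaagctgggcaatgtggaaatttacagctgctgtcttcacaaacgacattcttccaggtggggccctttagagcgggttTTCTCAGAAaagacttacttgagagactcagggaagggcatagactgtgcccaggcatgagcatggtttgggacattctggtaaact

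Replicate-specific peaks were also found at the end of Ppt1, where the gene meets the convergent gene Cap1, which encodes an actin regulator. In replicate 1 a peak at chr4:122858972-122859176 had a fold of 5.85 and 17 fragments. In replicate 2 a peak at chr4:122859179-122859346 had a fold of 5.87 and 12 fragments. The 2 peaks were separated by 2 bases and their summits by 222 bp, so they did not count as shared. The replicate 1 summit lay in the 3′ UTR of the last exon, and the replicate 2 summit lay just past the annotated end of the transcript. Replicate 2 had 1 further peak by the rule, in an intron of Cap1 35784 bp from the Ppt1 TSS, with a fold of 5.05. A shared peak nearest to Cap1 lay just outside the limit, at 50952 bp, with a fold of 5.2 in replicate 1. The regions just inside the limit were those of Mfsd8 at 45609 bp and Pla2g15 at 43917 bp.

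Ppt2 encodes a related lysosomal thioesterase, which does not replace Ppt1. It had 4 shared regions, the most of any member, all upstream of the gene between chr17:34635739 and 34641159, and the outermost mean summits were 5025 bp apart. They lay in gene-dense sequence, with 10 other protein-coding genes whose TSS was within 50 kb of the Ppt2 TSS. By curated transcripts none of the 4 was nearest to Ppt2. The nearest TSS was that of Prrt1, a membrane protein gene, for 1 region and that of Fkbpl, an FK506-binding protein-like gene, for 3.

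The Ppt2 region farthest upstream, chr17:34640618-34641159, lay 12595 bp from the Ppt2 TSS and 3940 bp from the Fkbpl TSS. Its fold was 5.7 in replicate 1 and 23.7 in replicate 2, and 36 and 54 fragments were stacked at the summits. The control level was 5.49 fragments in replicate 1 and 1.32 in replicate 2, so that the fold in replicate 1 was divided by a control level above the genome-wide background. This ratio of folds, 4.15, was the highest of the 10964 shared regions, a feature picked after its values were seen. Set over the genome-wide background of each library instead, the values were 12.0 and 24.8, a ratio of 2.06, and 7.28% of shared regions had a higher ratio. The replicates differed in the control level as well as in the pileup. Their summits lay 133 bp apart, so the 2 control levels belong to different positions. Whether the inputs differed at the same position, or for a technical reason, was not tested.

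The next region, chr17:34639369-34640091, lay 11517 bp upstream of Ppt2 and had folds of 9.42 and 18.5, from 28 and 40 fragments. By fold it was the strongest Ppt2 region in replicate 1 and came after the farthest one in replicate 2. The other 2 regions, chr17:34637612-34637921 and chr17:34635739-34635987, at 9461 and 7570 bp upstream, had equal values of 4.87 in replicate 1 and 5.87 in replicate 2, from 14 and 12 fragments each. Both had fewer fragments than the median peak of each library. Replicate 2 had 2 further peaks without a partner, in the promoter of Rnf5, a ubiquitin ligase gene, with a fold of 4.51 and between the shared regions with a fold of 4.06.

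The assignment of the Ppt2 regions depended on the transcripts used. A predicted RefSeq transcript of Ppt2 starts at chr17:34638022, upstream of the curated starts, the farthest of which is at 34628279. With predicted transcripts included, all 4 regions were nearest to Ppt2, at 2173, 282, 1774 and 2852 bp from that start, and 9 of the 11 regions of the list were nearest to their own gene in place of 5. This rise came from the 4 Ppt2 regions alone. The effect of predicted transcripts over all shared regions is not given here, so nothing particular to the list was read from it. Transcripts were not measured in these libraries, and whether AMs use the predicted start was not tested here. The sequence at the summit of the strongest Ppt2 region in replicate 2 is given because its fold differed most between replicates. It holds the AP-1 string TGACTCA and the ETS string ACTTCCT.
Ppt2 12595 bp upstream, chr17:34640774-34640974: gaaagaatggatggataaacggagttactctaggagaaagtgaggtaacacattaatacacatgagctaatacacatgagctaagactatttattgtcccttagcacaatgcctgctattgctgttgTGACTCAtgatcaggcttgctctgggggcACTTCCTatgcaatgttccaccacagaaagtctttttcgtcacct

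**Figure D2:**
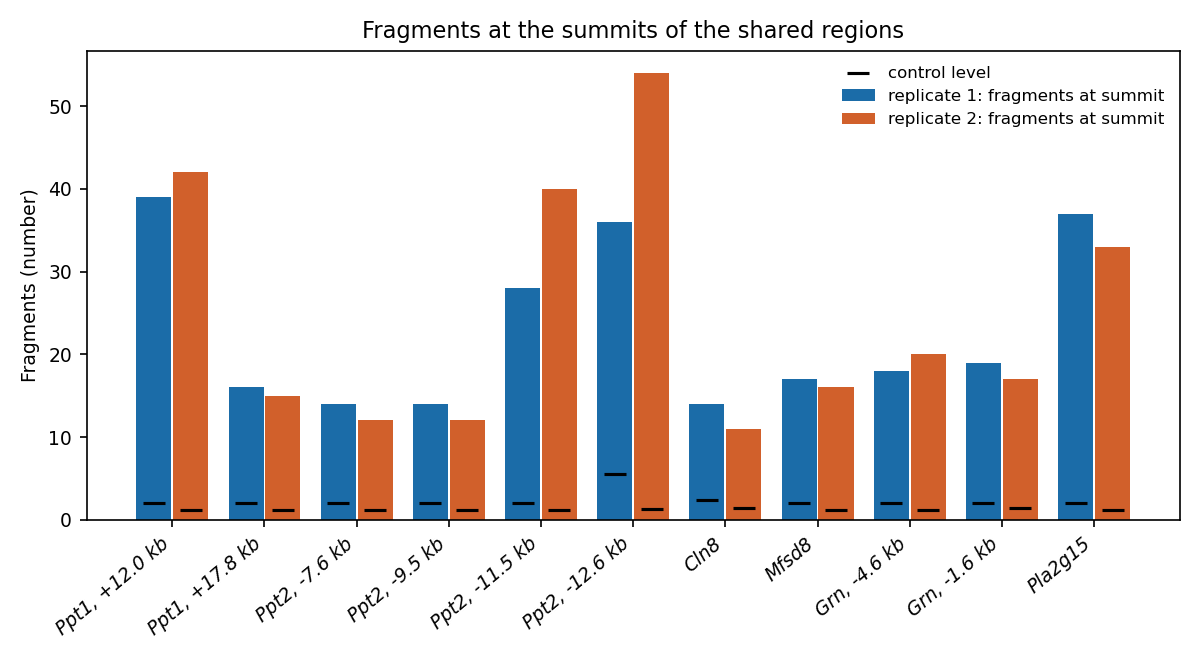
Fragments at the summit of the 11 shared regions in replicate 1 and replicate 2 (y axis, number of fragments, coloured bars), with the control level at each summit as a short black line. Regions are named by gene and distance from its TSS. The Ppt1 region in intron 4, the Ppt2 regions 11517 and 12595 bp upstream and the Pla2g15 region stand at 28 fragments or more in both replicates, and the other 7 lie between 11 and 20.

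Grn encodes progranulin, a secreted and lysosomal glycoprotein whose precursor is split into granulins, and loss of both copies causes a form of NCL. Grn had 2 shared regions upstream of its TSS, 3068 bp apart, and both were nearest to Grn. The region at chr11:102428777-102429126, 1565 bp upstream, had folds of 6.5 and 7.54, from 19 and 17 fragments. The region at chr11:102425743-102426045, 4633 bp upstream, had folds of 6.17 and 9.48, from 18 and 20 fragments. Both lay close to the median of all shared regions, whose smaller fold had a median of 6.5. Grn was the member whose shared region lay closest to its own curated TSS, though still beyond the promoter window of 1 kb. The sequences are given because both regions lay upstream of Grn and were nearest to its TSS. The SMAD-type string GTCTGG lies 3 bp from the mean summit in the first window, and the second holds none of the strings searched.
Grn 1565 bp upstream, chr11:102428842-102429042: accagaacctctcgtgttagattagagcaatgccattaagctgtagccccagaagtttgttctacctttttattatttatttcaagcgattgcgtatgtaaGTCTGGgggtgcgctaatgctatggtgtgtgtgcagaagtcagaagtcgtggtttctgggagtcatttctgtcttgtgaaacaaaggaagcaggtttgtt
Grn 4633 bp upstream, chr11:102425774-102425974: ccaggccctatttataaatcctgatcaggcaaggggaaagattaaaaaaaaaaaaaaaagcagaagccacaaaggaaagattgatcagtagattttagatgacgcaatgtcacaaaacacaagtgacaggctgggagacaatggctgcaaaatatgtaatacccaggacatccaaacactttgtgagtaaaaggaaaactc

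Cln8 encodes a membrane protein of the endoplasmic reticulum that takes part in the export of newly made lysosomal enzymes. Its shared region, chr8:14884449-14884726, lay 3942 bp upstream of the TSS and was nearest to it. The folds were 4.47 and 5.02, the lowest of the 11 regions in both replicates, from 14 and 11 fragments over control levels of 2.35 and 1.39. A predicted Cln8 transcript starts upstream, at chr8:14881335 against the curated start at 14888536, and places the region inside the gene. In intron 1, 1581 bp downstream of the TSS, replicate 2 had a further peak with a fold of 4.51 that replicate 1 lacked. The window at the shared summit is given because it was the remaining region nearest to a member, and it holds the C/EBP string TTTTGCAA and 2 copies of the RBPJ-type string GTGGGAA.
Cln8 3942 bp upstream, chr8:14884494-14884694: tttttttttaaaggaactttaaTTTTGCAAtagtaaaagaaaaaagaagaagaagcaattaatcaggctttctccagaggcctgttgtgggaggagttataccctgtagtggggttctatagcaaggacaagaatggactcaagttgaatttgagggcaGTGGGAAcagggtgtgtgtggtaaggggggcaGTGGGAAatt

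Mfsd8 encodes a membrane protein of the lysosome of the major facilitator family. Its shared region, chr3:40800982-40801339, had folds of 5.85 and 7.67, from 17 and 16 fragments. It lay 45609 bp downstream of the Mfsd8 TSS, past the end of the gene, in an intron of Plk4, which encodes a kinase of centriole duplication. The Plk4 TSS was 1294 bp away, so the region belonged to Mfsd8 by the distance limit and to Plk4 by the nearest TSS. A peak of replicate 2 lay 1292 bp upstream of the Mfsd8 TSS, with a fold of 5.41, in an intron of Gm2011, and had no partner in replicate 1.

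Pla2g15 encodes the lysosomal phospholipase A2, which cleaves phospholipids and is abundant in AMs, where its loss leads to phospholipid storage in mice. Its shared region, chr8:106106189-106106681, was among the strongest of the 11, with folds of 12.3 and 15.3 from 37 and 33 fragments. It lay 43917 bp upstream of Pla2g15 in an intron of Nfatc3, a transcription factor gene, and the TSS of the noncoding gene 1810019D21Rik was nearer, at 28963 bp. Of protein-coding genes, Esrp2, a splicing regulator gene of epithelium, had the nearest TSS, at 30537 bp. Closer to the Pla2g15 TSS there were weak peaks without a partner, at 1187 bp upstream in replicate 1 (fold 4.55, 13 fragments) and at 4835 bp upstream in replicate 2 (fold 5.41, 11 fragments). Each replicate thus had a peak within 5 kb of Pla2g15, at different places.

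Cln3 encodes a membrane protein of the lysosome, and its loss causes juvenile NCL. Its peaks were not shared. Replicate 1 had a peak in the promoter, 585 bp upstream of a TSS and within the gene by another curated start, at chr7:126583746-126583928, with a fold of 5.2 from 15 fragments. Replicate 2 had a peak at chr7:126584796-126584914, with a fold of 5.87 from 12 fragments, which lay 158 bp from the TSS of Apobr, a lipoprotein receptor gene. A further peak of replicate 2, 36190 bp upstream and nearest to Nupr1, had a fold of 7.67 from 16 fragments, the highest fold of any unpaired peak at the 9 genes. Each library therefore had a peak within the Cln3 gene, at positions that did not overlap and were closest to different curated Cln3 starts. The replicate 2 peak lay 967 bp downstream of its Cln3 start and was nearer to the Apobr TSS.

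Tpp1, the lysosomal tripeptidyl peptidase whose loss causes late infantile NCL, and Smpd1, the acid sphingomyelinase that is deficient in Niemann-Pick disease types A and B, had no peak by the rule. Both are on chromosome 7, with start sites 198 kb apart. The summit closest to the Tpp1 TSS was 61.2 kb away in both replicates, with folds of 4.22 and 11.3. For Smpd1 the closest summits were 122 kb away in replicate 1 (fold 5.2) and 72.6 kb away in replicate 2 (fold 4.51). A peak list shows where a signal passed the limit of the caller. Whether weaker binding was present or absent at these genes was not tested.

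**Figure D3:**
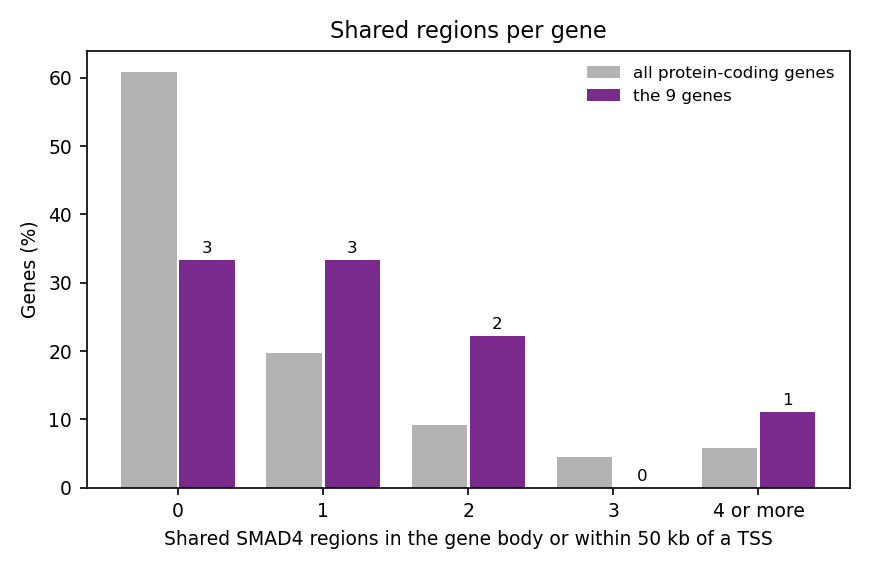
Share of genes (y axis, %) with 0, 1, 2, 3 and 4 or more shared SMAD4 regions by the same rule (x axis), for the 9 members and for all protein-coding genes. Of the members 3 had none, 3 had 1, 2 had 2 and 1 had 4, and of all protein-coding genes 60.9% had none and 5.83% had 4 or more.

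Counting each replicate alone, 7 of the 9 genes had a peak in replicate 1 and 7 in replicate 2, compared with 46.6% and 53.4% of protein-coding genes. Of the members' peaks, 11 of 14 in replicate 1 had a partner (78.6%, exact 95% binomial interval 49.2 to 95.3%), beside 69.4% of the whole list. In replicate 2, 11 of 20 had a partner (55.0%, 31.5 to 76.9%), beside 59.2% of the whole list. The intervals cover counting error only and treat the peaks as independent. Several of the peaks lie together at Ppt2, and the same pairs enter the shares of both replicates. No comparison with the whole list was therefore drawn from the intervals. Peaks with a partner had 14 to 39 fragments in replicate 1 and 11 to 54 in replicate 2. Those without had 13 to 17 and 8 to 16 fragments, so the ranges overlapped, and the unpaired peaks were among the weaker ones.

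Over the 11 regions the smaller of both folds had a median of 5.85, compared with 6.5 over all shared regions, and the merged width had a median of 358 bp, compared with 440 bp. Their mean summits lay a median of 5018 bp from the nearest TSS, compared with 18040.5 bp. None lay in a promoter (6.42% of all shared regions), a termination site (1.3%) or an exon (2.49%). Introns held 4 (49.3%) and intergenic sequence held 7 (40.5%). The rule itself kept out regions beyond 50 kb unless they were in the gene, and 4 of the 11 were the Ppt2 regions in gene-dense sequence, so nothing was read from the distances. A count of 0 of 11 in promoters is also near the share of all shared regions. Their median GC content was 42.8% (35.8 to 54.2%), compared with 43.8%. Fragments at the summit were fewer in replicate 2 at 7 regions and more numerous at 4. Over the whole lists the median was also lower in replicate 2, 14 compared with 17 fragments. The same count over all shared regions is not given here, so nothing was read from it.

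**Figure D4:**
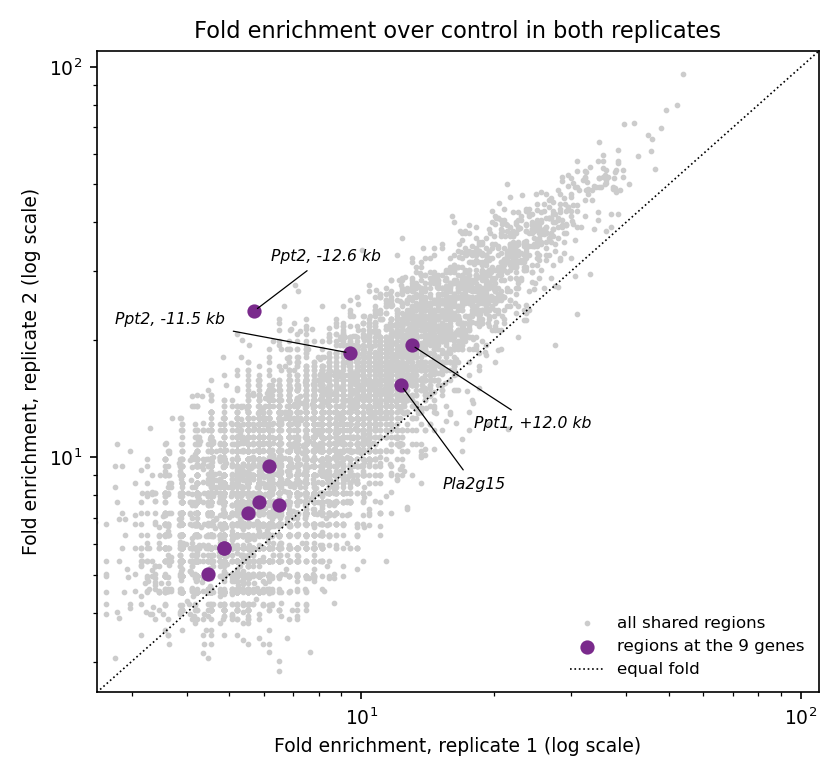
Fold enrichment over the control in replicate 1 (x axis, log scale) and replicate 2 (y axis, log scale) for the 10964 shared regions (grey) and the 11 regions at the 9 genes (purple), with a dotted line where both are equal. All 11 lie above the line, and the Ppt2 region 12595 bp upstream, at 5.7 and 23.7, lies farthest from it.

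Short strings of known factor motifs were searched on both strands of the 201 bp windows. C/EBP strings (TTGCNNAA or TTACNNAA) were in 4 of the 11 windows, compared with 56.1% of all shared regions. The 4 were the region of Cln8, the region of Mfsd8, the region of Pla2g15 and the weaker Ppt2 region near Fkbpl. Within 200 bp of the mean summit the count was 7 of 11, compared with 67.2%. Neither Ppt1 region nor either Grn region held a C/EBP string within 100 bp. The Mfsd8 window held TTGCATAA 2 times and TTGCTTAA, and the Pla2g15 window held TTGTGTAA and TTGCAAAA.

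SMAD-type strings were near their share of all shared regions. GTCTGG was in 1 of 11 (Grn), compared with 11.2%, and the palindrome GTCTAGAC was in 0 of 11, compared with 0.465%. STAT-type strings (TTCNNNGAA) were in 3 of 11, both Ppt1 regions and the Ppt2 region nearest to Prrt1, compared with 8.06%. AP-1 strings (TGANTCA) were in 2 of 11, both at Ppt2, compared with 12.3%. The E-box CACGTG, which is the core of the site of the lysosomal gene regulators TFEB and TFE3, was in 1 of 11 (Ppt1 intron 4), compared with 3.65%. The longer TCACGTGA, which contains the E-box, was in 0 of 11, compared with 0.347%.

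ETS strings (AGGAAGT) were in 2 of 11, compared with 20.4%, and the PU.1 string GAGGAAGT, which contains the ETS string, was in 0 of 11, compared with 8.0%. RUNX (TGTGGTT) was in 0 of 11, compared with 10.8%, and the nuclear receptor string AGGTCA was in 0 of 11, compared with 15.4%. The RBPJ-type string GTGGGAA was in 1 of 11 (Cln8), compared with 4.14%. A match is a description of the letters in a window, and a window without one says nothing about the factor. With 11 windows, these counts were too few to separate the members from the other shared regions.

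The remaining genes of the pathway were counted in the same way, from the genes named here. Of 6 other NCL genes (Cln6, Ctsd, Ctsf, Dnajc5, Kctd7 and Atp13a2), 3 had a shared region, each of them with 1 or more nearest to its own TSS, and Dnajc5 had 1 in the gene body. Over all protein-coding genes the shares were 39.1% with a shared region, 21.5% with one nearest and 13.9% with one in the gene body. Ctsd, the lysosomal protease cathepsin D, had 9 shared regions by the rule, of which 4 were nearest to its own TSS and 0 lay in its gene body. The strongest of the 4 lay 16014 bp upstream. Its folds were 18.2 and 33.4, above those of the Ppt1 intron 4 region in both replicates. Atp13a2, a lysosomal polyamine exporter gene, had folds of 9.42 and 15.8 at its strongest, and Dnajc5, a co-chaperone gene, had 8.95 and 16.1. Cln6, Ctsf and Kctd7 had no shared region.

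Of 12 genes of lysosomal lipid breakdown and export (Lipa, Asah1, Gla, Galc, Arsa, Hexa, Gm2a, Psap, Npc1, Npc2, Glb1 and Neu1), 8 had a shared region, each with 1 or more nearest to its own TSS, and 5 had 1 or more in the gene body. By the smaller of both folds the highest such region was that of Psap, the precursor of the saposins that assist sphingolipid breakdown, with 16.2 and 18.0. Galc, the galactosylceramidase, followed with 11.0 and 11.7, although in replicate 2 Neu1 was higher and Npc2 was equal. Neu1, the lysosomal sialidase, had 9.1 and 15.8, Npc1, the cholesterol exporter, 8.77 and 8.37, and Npc2, its soluble partner, 7.47 and 11.7. Some genes of both lists are not in these counts, so the counts describe the genes named and were not compared with those of the members.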

How the data were processed

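HT-ChIPmentation of SMAD4 was analysed in AMs from the peak lists of 2 SMAD4 libraries. The 2 input libraries entered only through the control level of each peak. Replicate numbers follow accession order and pair no SMAD4 library with an input. The labels and the methods name different suppliers of the SMAD4 antibodies.

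The authors trimmed reads (Cutadapt 1.7.1), aligned them to mm10 (Bowtie2), marked duplicates (PICARD), filtered them (samtools) and called peaks in each sample separately (MACS3 3.0.0a5, q-value limit 0.05, input as control). The deposited values of each peak are the fold ratio over the control at the summit, −log10 p-value and −log10 q-value, the summit position and a score, which is 10 times the −log10 q and was not used. Sequencing totals were not used here.

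The members and the lists were chosen with earlier results of these data known. Fragments at the summit were solved from the fold and the p-value, taking fold as (fragments + 1)/(control + 1). The nearest gene was that of the closest TSS among 45657 curated RefSeq transcripts of 26089 genes. Promoters were 1 kb upstream to 100 bp downstream of a TSS. All 9 members were named, other genes where their TSS was nearest to a peak or the peak lay in them, and values were given for at most 5 genes of each comparison list, by the smaller fold of the strongest region nearest to their own TSS. The genes counted in each list are named beside its count, whatever their values. Some genes of these lists are not reported here and are not in the counts. The count over markers of other cell types is not reported, since that list was not complete. The alternatives were other overlaps, q, fold and distance limits, predicted transcripts, other string windows and each replicate alone. GENCODE M21 transcripts were added after the data were seen. Scripts were tested on simulated data. Python 3.11.15 was used, with the packages pysam 0.24.0, matplotlib 3.10.9, scipy 1.17.1, pandas 2.3.3 and numpy 2.4.6.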

Additional observations from a re-analysis of the deposited data

How the results depend on the processing

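Of 48 recomputed counts for the 9 genes, 35 stayed within 1.5 times the reported value and 13 moved further. The 11 shared regions became 5 with summits within 100 bp, 7 within 10 kb of a TSS and 17 within 100 kb, and 14 to 20 when peaks of 1 replicate alone were counted. The number of genes with a region in the gene body, 1 as reported (Ppt1), was 0 with summits within 100 bp, since the Ppt1 summits lie 112 and 163 bp apart, 3 with predicted transcripts, and 2 to 3 with 1 replicate alone. Genes with a region nearest to their own TSS, 3 as reported, fell to 2 under 3 of the limits. These were an overlap of 50% of both peaks, summits within 100 bp and a fold of at least 5. The count was 4 with predicted transcripts and 4 to 5 with 1 replicate alone. Regions with a C/EBP string, 4 as reported, were 1 with an overlap of 50% of both peaks, 2 at a fold of at least 5, 7 with a window of 200 bp each side and 3 to 10 with 1 replicate alone. The number of genes with a shared region, 6 as reported, stayed between 4 and 7 under every alternative run for it. With 1 replicate alone this counts unpaired peaks too. At an overlap of 50% of both peaks it was 4, as Cln8 and Mfsd8 lost their region. The share over all protein-coding genes was not recomputed for the other overlap, q, fold and distance limits. Of 90 recounts for single genes, 71 kept their value within that limit, but 27 of these were 0 in both counts, and 9 rose and 10 fell further. With GENCODE M21 transcripts, chosen after seeing the data, the 4 counts run (11, 6, 3 and 1) were equal to the reported ones. No paired analysis was possible because the result comes from no test and the replicate numbers pair no samples. The number of fragments, at most 20 at 7 of the 11 regions, limits what could be called. No test of a difference between conditions can be made from 1 condition.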
